A study of Mus musculus with 20 samples.

Results

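The genes examined were 7 that act where glucose enters the heart cell and is first phosphorylated, or that restrain this entry. They were *Slc2a1* and *Slc2a4* (glucose transporters GLUT1 and GLUT4), *Hk1* and *Hk2* (hexokinases), *Gpi1* (glucose 6-phosphate isomerase), and *Txnip* and *Arrdc4* (alpha-arrestins). They were chosen by name for these roles, 7 of the 23420 genes in the table of counts, and all 7 were among the 13590 genes that reached at least 1 CPM (read pairs scaled to library size) in at least 10 mice. Messenger RNA had been sequenced from whole hearts of male wild-type C57BL/6 mice (C57BL/6J in the study's methods), aged 9 weeks, that had received a control diet (10 control mice) or an iron-deficient diet (10 IDA mice, iron-deficient and anemic) for 6 weeks from an age of 3 weeks. No agent other than the diet was given, and the labels state the iron content of the deficient diet inconsistently. The comparison asked how the RNA of these genes differed between IDA and control hearts.

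Glucose crosses the sarcolemma through GLUT1, which resides at the cell surface, and through GLUT4, which moves there from internal vesicles in response to insulin, contraction and energy stress. Hexokinase traps the sugar as glucose 6-phosphate, which the isomerase passes to glycolysis as fructose 6-phosphate, while other enzymes divert it to pentoses, glycogen or amino sugars. TXNIP binds the transporters and promotes their removal from the surface, ARRDC4 is a relative with a similar action, and the genes of both are known targets of the glucose-sensing factors MondoA and ChREBP. *Slc2a1*, *Hk1*, *Hk2* and *Gpi1* are known targets of hypoxia-inducible factor, which binds the core ACGTG.

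The regulatory sequences that bear these names were read from RefSeq (GRCm38.p6) in windows from 250 bases before to 50 bases after each start site. Windows were found for 6 of the 7 genes, 7 windows in all, and *Slc2a4* had none. The first sequence shows the glucose-sensing form in *Txnip*, and the others show the ACGTG core upstream of the start sites of a transporter, a hexokinase and the second arrestin. Capitals mark the matched letters, and a minus strand sequence is given as read 5′ to 3′ on that strand, where CACGT is the core on the opposite strand.
*Txnip*, chr3:96557850-96557909, plus strand: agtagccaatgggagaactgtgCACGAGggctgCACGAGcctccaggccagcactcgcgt
*Slc2a1*, chr4:119108684-119108738, plus strand: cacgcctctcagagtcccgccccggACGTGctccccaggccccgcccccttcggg
*Hk2*, chr6:82774651-82774704, minus strand: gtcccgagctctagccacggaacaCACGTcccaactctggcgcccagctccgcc
*Hk2*, chr6:82774477-82774531, minus strand: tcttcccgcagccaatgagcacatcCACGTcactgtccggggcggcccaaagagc
*Arrdc4*, chr7:68749401-68749456, minus strand: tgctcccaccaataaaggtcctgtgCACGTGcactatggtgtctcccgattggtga

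Both strands were searched in the windows of all 32851 promoters. The pair of CACGNG copies 5 bases apart, which the *Txnip* window holds as CACGAG and CACGAG, occurred in 16 promoters (0.0487%). CACGNG alone occurred in 27.5%. A looser pair, CACGNG with CNCGNG at the same spacing, occurred in 0.365% and includes the first form. ACGTG occurred in 19.6% of promoters. CACGTG, an E-box, which contains ACGTG and is the *Arrdc4* match, occurred in 7.15%. Of the windows of these genes, only that of *Txnip* held the pair in either form, so that of *Arrdc4* did not. Among the other letters searched, CCAAT occurred in 37.4% and GGGCGG in 35.7% of promoters. The windows of *Txnip*, *Slc2a1*, *Hk2* and *Arrdc4* held CCAAT, and those of *Txnip*, *Slc2a1*, *Hk2* and *Gpi1* held GGGCGG. A window of *Hk1* held ACGTG in 2 places after its start site, which are not shown. A match describes the letters only.

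Before correction for gene length or a covariate for library size, IDA hearts had higher CPM of *Slc2a1*, *Slc2a4*, *Hk1*, *Gpi1* and *Txnip* and lower CPM of *Hk2*. *Arrdc4* passed the test in neither direction. In the quasi-likelihood test of edgeR, with p-values adjusted over 13590 genes by Benjamini and Hochberg and called below 0.05, 5 of the 7 genes were higher, 1 was lower and 1 was not called. Of all tested genes, 67.5% were called, 35.0% higher and 32.5% lower, so the count of 6 called among 7 is read beside a background in which most genes were called. With an unadjusted p below 0.01 required in both edgeR and DESeq2, 4 were higher and 1 lower, and 59.8% of tested genes were called. With the trend on gene length removed, 6 were higher and 0 lower, and 55.0% of tested genes were called, 31.5% higher and 23.5% lower. With log2 library size as a covariate, 3 were higher and 1 lower, and 7920 of 13590 tested genes were called, 3959 of them higher. *Slc2a4* and *Txnip* were then not called (adjusted p = 0.967 and 0.0765, edgeR). The differences were small, between 0.89-fold for *Hk2* and 1.24-fold for *Slc2a1*, beside a median log2 fold change of 0.02 over all tested genes. The values of the diets overlapped for each of the 7 genes, whereas they did not overlap for 11.3% of tested genes.

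**Figure D1:**
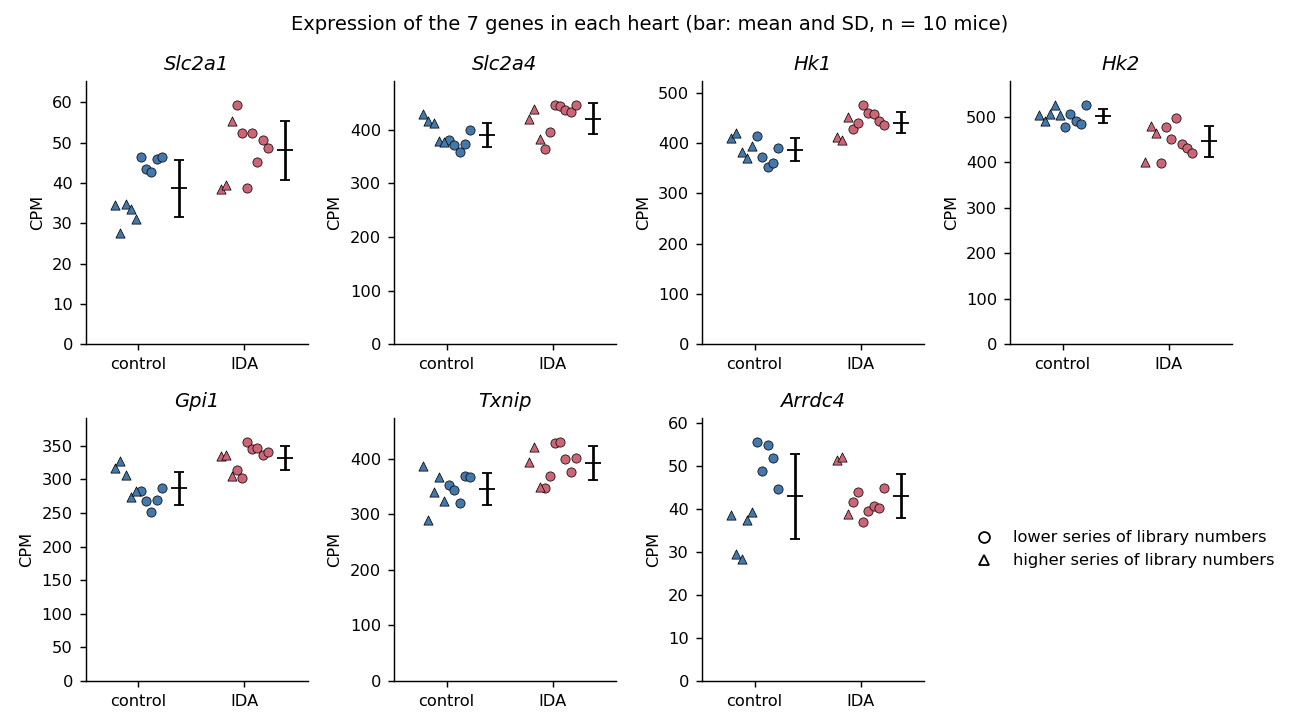
CPM of each gene in each of 20 hearts, in control (blue) and IDA (red) mice, with circles for the lower and triangles for the higher series of library numbers, and bars for the mean and SD of 10 mice. IDA points sit mostly above control points for *Hk1* and *Gpi1* and below them for *Hk2*, and control points of *Slc2a1* and *Arrdc4* form separate levels by series.

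Total counts ranged from 6682177 to 8960688 read pairs per mouse, with a median of 7902932 in control and 6806177 in IDA mice. Library numbers in the column names fall into a lower series (5 control and 7 IDA mice) and, after a gap, a higher series (5 control and 3 IDA mice), and the labels do not say what the series are. Within control mice, 67 genes (0.493% of those tested) differed between the series, and *Slc2a1* and *Arrdc4* were among them. The libraries of IDA mice 3, 4 and 5 stood apart from the others on the second principal component of all tested genes, with scores of -21.3, -30.1 and -20.7 where the lowest of the other mice had -6.73. Fold changes over all genes fell with exonic length, from a median log2 fold change of 0.35 in the shortest of 20 equal groups of genes (median 689 bp) to -0.62 in the longest (median 9288 bp). Duplicate read pairs had been removed, and the most densely covered gene of at least 200 bp reached only 2.06 to 2.39 read pairs per exonic base in any mouse.

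Because whole hearts were ground, RNA from each cell type contributed, and fewer cells of a type cannot be told apart from less RNA per cell. The 7 cardiomyocyte markers, among them *Myh6* and *Tnnt2*, summed to between 3895 and 4699 CPM in control and between 3368 and 4805 CPM in IDA hearts. They moved in both directions, with 3 higher, 1 lower and 3 not called, and 2 higher and 5 lower with the length trend removed. Such counts are read beside all tested genes, of which 67.5% were called, and 55.0% with the length trend removed. The cardiomyocyte marker highest in CPM, which was not divided by exonic length, was *Ryr2* (1774 CPM in control and 1248 CPM in IDA hearts). How far the removal of duplicates held down the more densely covered markers, and so the sums, was not tested. Of 13 erythroid genes in the table, 6 were tested, 5 were higher and 1 was lower, and the list summed to between 205 and 297 CPM in control and between 292 and 937 CPM in IDA hearts. Its highest gene was *Alas2* (76.0 CPM in control and 204 CPM in IDA hearts), and the globin genes *Hba-a1*, *Hba-a2* and *Hbb-b2* were at 0 in all 20 libraries. Whether this 0 stands for absent globin RNA or for how reads were assigned to these genes was not tested. All 4 platelet markers were higher, with sums of 32.8 to 95.2 CPM in control and 72.0 to 299 CPM in IDA hearts. The ranges of the erythroid and platelet sums overlapped between diets, and so did the sums of the remaining lists. They were 1348 to 1504 and 1166 to 1458 CPM for 6 endothelial genes, 1198 to 1463 and 1135 to 1349 CPM for 5 fibroblast genes, and 472 to 665 and 425 to 605 CPM for 4 smooth muscle genes, in control and IDA hearts respectively. Sums of 105 to 131 and 87.9 to 154 CPM were found for 6 leukocyte genes, 52.6 to 97.0 and 76.7 to 105.5 CPM for 7 adipocyte genes, and 157 to 208 and 177 to 218 CPM for 6 skeletal muscle genes.

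*Slc2a1*, the basal transporter, lies on the plus strand of mm10 at chr4:119108745-119137329, with 10 exons and 2572 exonic bp. Control hearts had a lowest value of 27.6, a median of 38.8 and a highest of 46.5 CPM, and IDA hearts had 38.5, 49.7 and 59.4 CPM. Of the IDA hearts, 6 lay above all 10 control hearts, and 9 of 10 lay above the control mean. The mean was 38.7 ± 7.07 CPM in control and 48.1 ± 7.33 CPM in IDA hearts (SD, n = 10 each), a log2 fold change of 0.31 (standard error 0.10, adjusted p = 0.00892, edgeR). It rested on 185 to 475 read pairs per mouse, so counting error was larger than for the more abundant genes.

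The control hearts fell into separate levels of *Slc2a1* by series of library numbers. The 5 control hearts of the lower series had 42.7 to 46.5 CPM and the 5 of the higher series 27.6 to 34.8 CPM, with no overlap (log2 difference -0.48, higher minus lower series, standard error 0.07, adjusted p = 0.0167, edgeR). IDA hearts had 38.8 to 59.4 CPM in the lower series and 38.5 to 55.3 CPM in the higher series. The log2 fold change by diet was 0.15 within the lower series (standard error 0.09, adjusted p = 0.16) and 0.45 within the higher series (standard error 0.13, adjusted p = 0.0192), in edgeR fits of each series. The difference between these fold changes did not pass the test (0.32, adjusted p = 0.798, edgeR interaction). With the series as a factor, *Slc2a1* remained higher, by 0.27 (adjusted p = 0.00589, edgeR). The difference was larger once log2 library size entered as a covariate, 0.50 (standard error 0.11, adjusted p = 0.000874, edgeR).

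The high end of *Slc2a1* in IDA hearts lay with mice 3, 4 and 5, at 55.3, 59.4 and 52.5 CPM. Without these 3 mice it was 0.19 higher on the log2 scale (standard error 0.11, adjusted p = 0.123, edgeR). The number of the 7 genes called higher was then 4 in place of 5, with *Hk2* still the 1 called lower, and 9280 of 13590 tested genes were called. With the mean log2 CPM of the 6 erythroid genes as a covariate the value was 0.29 (adjusted p = 0.16, edgeR). That mean ranged from 3.71 to 4.47 in control and from 4.73 to 6.77 in IDA hearts, so it separated the diets. The part of erythroid cells in the difference was not tested further.

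*Slc2a4*, the insulin-responsive transporter of muscle and fat, lies on the minus strand at chr11:69942286-69948190, with 11 exons and 2822 exonic bp. The lowest, median and highest values were 359, 380 and 429 CPM in control hearts and 364, 434 and 446 CPM in IDA hearts. The range in IDA hearts nearly covered that of control hearts, although 6 IDA hearts lay above all control hearts. The mean was 390 ± 22.9 CPM in control and 420 ± 29.3 CPM in IDA hearts (SD, n = 10 each), a log2 fold change of 0.11 (standard error 0.04, adjusted p = 0.0296, edgeR). This was the smallest difference among the 6 called genes, and with log2 library size as a covariate it was -0.002 (adjusted p = 0.967, edgeR).

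The CPM of *Slc2a4* followed the size of the library. Its read pairs varied between mice by 1.14-fold from lowest to highest (2791 to 3189), while total counts varied by 1.34-fold. With diet means removed, log2 CPM of *Slc2a4* correlated with log2 total count over 20 mice at Pearson's r = -0.879 and Spearman's rho = -0.919 (permutation within diet, adjusted p = 3.5e-05 for each over 7 genes, from the smallest p that the resamples can give). The coefficient was -0.863 without the 2 mice farthest from the median total, and -0.867 within the series of library numbers (adjusted p = 0.000385, permutation). *Gpi1* behaved alike, with r = -0.957 and rho = -0.935 (adjusted p = 3.5e-05 for each, permutation), -0.934 without the 2 farthest mice and -0.938 within the series (adjusted p = 0.00021, permutation). *Slc2a1* (r = 0.535), *Arrdc4* (0.567) and *Hk1* (-0.51) also passed for Pearson's r (adjusted p = 0.0398, 0.0398 and 0.0448, permutation). These 3 genes did not pass for Spearman's rho (adjusted p = 0.0966 for each) or within the series (adjusted p = 0.257, 0.458 and 0.213, permutation). *Slc2a4* was covered at 1.06 read pairs per exonic base in control and 1.07 in IDA hearts, the densest of the 7 genes and denser than 98.4% of tested genes. How far the removal of duplicates held down its counts was not tested.

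*Hk1*, the hexokinase that most tissues express, rose in IDA hearts. It lies on the minus strand at chr10:62268855-62379908, with 23 exons and 4509 exonic bp. Control hearts had a lowest value of 353, a median of 387 and a highest of 421 CPM, and IDA hearts had 407, 442 and 476 CPM. In 8 IDA hearts the value was above all control hearts, and in all 10 above the control mean. The mean was 387 ± 23.2 CPM in control and 441 ± 21.6 CPM in IDA hearts (SD, n = 10 each), a log2 fold change of 0.19 (standard error 0.04, adjusted p = 0.00015, edgeR). Within the lower series of library numbers the value was 0.25 (adjusted p = 0.000599) and within the higher series 0.09 (adjusted p = 0.298, edgeR). Removal of the trend on gene length gave a larger value, 0.43 (standard error 0.05, adjusted p = 1.64e-06, edgeR).

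*Hk2*, the insulin- and hypoxia-inducible hexokinase of striated muscle, was the gene whose direction turned with the correction for gene length. It lies on the minus strand at chr6:82725027-82774454, with 18 exons and 5511 exonic bp, the longest of the 7 genes and longer than 85.6% of tested genes. The lowest, median and highest values were 478, 504 and 526 CPM in control hearts and 399, 446 and 497 CPM in IDA hearts. In 7 IDA hearts the value was below all control hearts, and 0 of 10 lay above the control mean. The mean was 501 ± 15.8 CPM in control and 446 ± 33.8 CPM in IDA hearts (SD, n = 10 each), a log2 fold change of -0.17 (standard error 0.04, adjusted p = 0.000744, edgeR). It was lower in both series of library numbers, with log2 fold changes of -0.16 (adjusted p = 0.0217) and -0.19 (adjusted p = 0.0464, edgeR). With the length trend removed it was 0.17 (standard error 0.04, adjusted p = 0.000368, edgeR), and with the trends on length and GC content removed it was 0.11 (adjusted p = 0.0135, edgeR). *Hk2* was thus lower in CPM and higher than the trend for genes of its length.

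**Figure D2:**
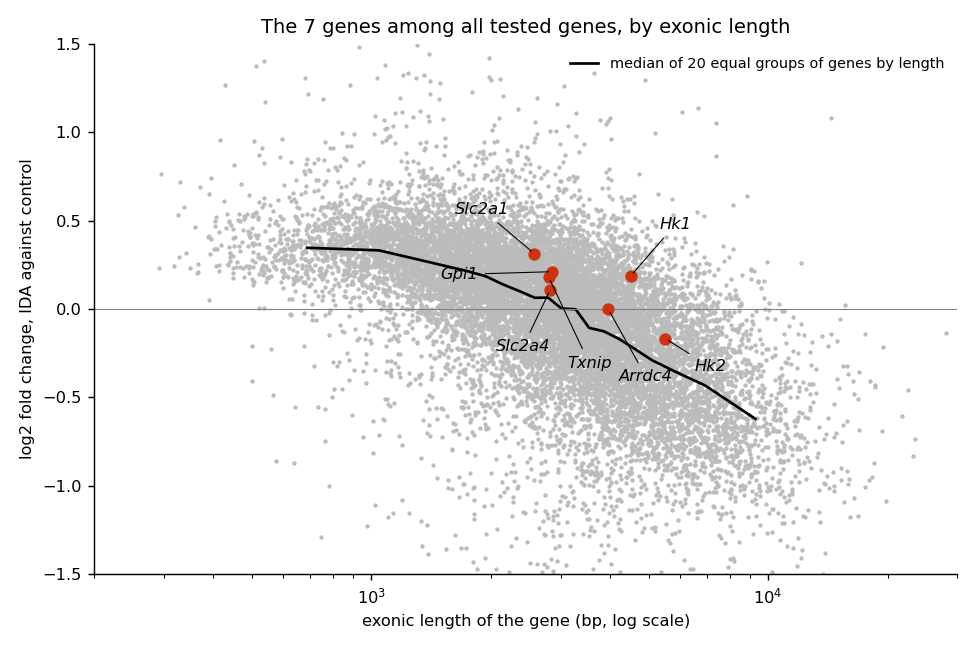
Log2 fold change of IDA against control hearts (vertical axis) for all tested genes (grey) on exonic length in bp (horizontal log scale), with the 7 genes in red and the median of 20 equal groups of genes by length as a line; genes beyond 1.5 in either direction lie outside the axis. The line falls from 0.35 to -0.62, and *Hk2* lies below 0 but above the line.

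Set against each other within each heart, the hexokinases shifted in relative amount. The log2 ratio of *Hk1* to *Hk2*, each per exonic kb, ranged from -0.22 to 0.09 in control and from 0.05 to 0.40 in IDA hearts, and all 10 IDA hearts lay above the control mean. Its mean was -0.09 ± 0.10 in control and 0.28 ± 0.11 in IDA hearts (SD, n = 10 each), which corresponds to 0.943 and 1.21 read pairs per kb of *Hk1* for each of *Hk2*. The difference of 0.36 passed a two-sided permutation test (p = 4e-05, adjusted over 3 ratios p = 0.00012). Both diets overlapped only slightly, between 0.05 and 0.09.

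The shift in the hexokinase ratio was smaller, at 0.27, with the length trend removed (p = 4e-05, permutation test). Within the lower series of library numbers it was 0.41 (exact permutation test, p = 0.00253, the smallest that design allows). Within the higher series, with 5 and 3 hearts, it was 0.27 (exact permutation test, p = 0.0714, where 0.0357 is the smallest p the design allows). Without IDA mice 3, 4 and 5 the difference was 0.36 (exact permutation test, p = 0.000309). The order of the hexokinases by mean level, without the correction for the length trend, also changed. Per exonic kb, control hearts had 91.0 ± 2.86 CPM of *Hk2* and 85.9 ± 5.14 CPM of *Hk1*, with overlapping ranges. IDA hearts had 81.0 ± 6.14 CPM of *Hk2* and 97.9 ± 4.79 CPM of *Hk1*. There the ranges were barely apart, with a highest *Hk2* of 90.1 and a lowest *Hk1* of 90.15 CPM.

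*Gpi1*, the isomerase that follows hexokinase, rose in IDA hearts. It lies on the minus strand at chr7:34201327-34230305, with 18 exons and 2856 exonic bp. Control hearts had a lowest value of 251.4, a median of 283 and a highest of 328 CPM, and IDA hearts had 303, 336 and 356 CPM. In 7 IDA hearts the value exceeded all control hearts, and all 10 exceeded the control mean. The mean was 287 ± 24.1 CPM in control and 332 ± 18.2 CPM in IDA hearts (SD, n = 10 each), a log2 fold change of 0.21 (standard error 0.05, adjusted p = 0.000313, edgeR). With log2 library size as a covariate, which *Gpi1* followed as closely as *Slc2a4*, the value was 0.08 (standard error 0.02, adjusted p = 0.00394, edgeR). Within the lower series of library numbers it was 0.30 (adjusted p = 0.000245) and within the higher series 0.10 (adjusted p = 0.282, edgeR).

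*Txnip*, which restrains glucose uptake and binds thioredoxin, also rose in IDA hearts. It lies on the plus strand at chr3:96557957-96561857, with 8 exons and 2801 exonic bp. The lowest, median and highest values were 289, 348 and 388 CPM in control hearts and 348, 398 and 431 CPM in IDA hearts. All 10 IDA hearts lay above the control mean and 6 of them above all control hearts. The mean was 346 ± 29.0 CPM in control and 392 ± 30.8 CPM in IDA hearts (SD, n = 10 each), a log2 fold change of 0.18 (standard error 0.05, adjusted p = 0.00384, edgeR). With the length trend removed it was 0.20 (adjusted p = 0.00329, edgeR), and with log2 library size as a covariate 0.13 (adjusted p = 0.0765, edgeR).

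Counting took no account of strand, and *Gm15441* on the opposite strand shares 606 bases with the exons of *Txnip*, 21.6% of their length, so read pairs from the shared part cannot be assigned by strand. *Gm15441* itself had 1.11 ± 0.453 CPM in control and 1.37 ± 0.370 CPM in IDA hearts (SD, n = 10 each; log2 fold change 0.30, adjusted p = 0.257, edgeR). In GENCODE M21, opposite-strand genes outside the table of counts also overlap exons of *Slc2a1* (105 bases of *Gm12868*), *Hk1* (157 bases of *Hk1os*) and *Gpi1* (356 bases of *Gm26762*). Their share of these counts was not tested.

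*Arrdc4*, the second arrestin that restrains the transporters, lies on the minus strand at chr7:68736994-68749238, with 8 exons and 3955 exonic bp. Control hearts had a lowest value of 28.3, a median of 42.1 and a highest of 55.6 CPM, and IDA hearts had 36.9, 41.2 and 52.1 CPM. All 10 IDA hearts lay within the control range, and the IDA hearts were closer together. The mean was 42.9 ± 9.86 CPM in control and 43.0 ± 5.15 CPM in IDA hearts (SD, n = 10 each), with a log2 fold change of -0.001 (standard error 0.11, adjusted p = 0.995, edgeR). With log2 library size as a covariate it was 0.22 (standard error 0.12, adjusted p = 0.131, edgeR).

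This equal mean was made up of opposite differences in the series of library numbers. In the lower series, control hearts had 44.7 to 55.6 CPM and IDA hearts 36.9 to 45.0 CPM, a log2 fold change of -0.32 (standard error 0.07, adjusted p = 0.00138, edgeR). In the higher series, control hearts had 28.3 to 39.4 CPM and IDA hearts 38.8 to 52.1 CPM, a log2 fold change of 0.43 (standard error 0.14, adjusted p = 0.0259, edgeR). Control hearts of the higher series were below those of the lower series by a log2 difference of -0.56 (standard error 0.10, adjusted p = 0.0303, edgeR). The difference between the fold changes was 0.76 (adjusted p = 0.0233, edgeR interaction), and 28 of 13590 genes passed that test. What distinguishes the series was not tested.

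**Figure D3:**
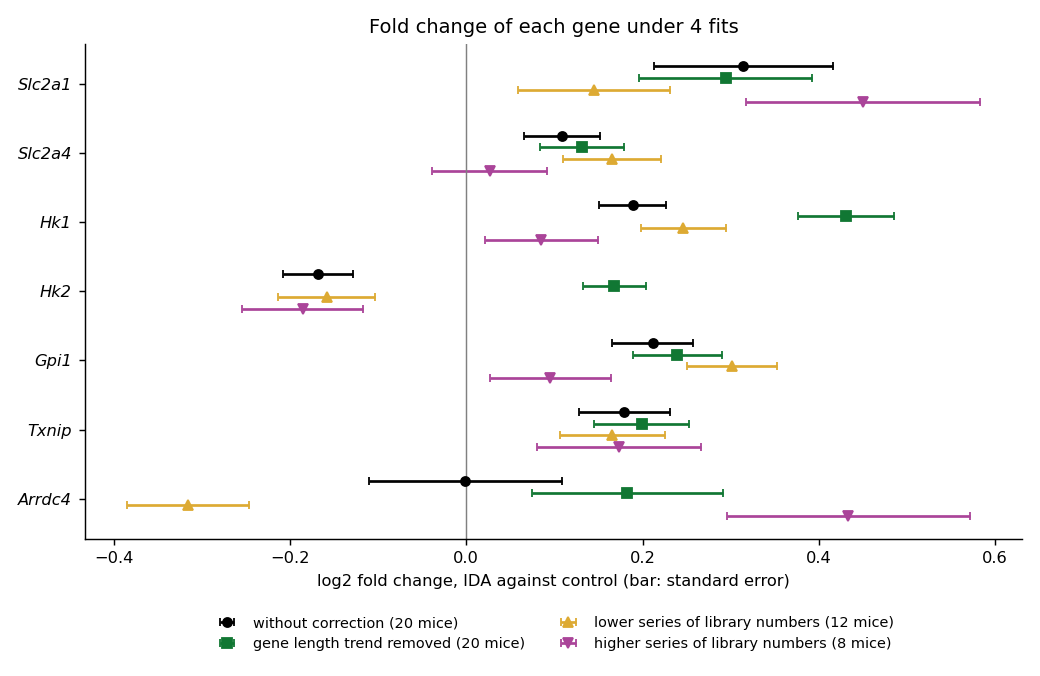
Log2 fold change of IDA against control hearts with its standard error for each gene, in all 20 mice (black circles), with the gene length trend removed (green squares), and within the lower (12 mice, yellow triangles) and the higher series of library numbers (8 mice, purple triangles). *Hk2* moves from -0.17 to 0.17 with the length trend removed, and *Arrdc4* stands at -0.32 in one series and at 0.43 in the other.

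The other paired ratios did not differ between diets by more than their spread. The log2 ratio of *Slc2a1* to *Slc2a4* per kb was -3.21 ± 0.32 in control and -3.00 ± 0.30 in IDA hearts (SD, n = 10 each), a difference of 0.21 (permutation test, p = 0.14, adjusted p = 0.21). It was -0.03 within the lower series (exact permutation test, p = 0.803) and 0.40 within the higher series (exact permutation test, p = 0.0357, the smallest the design allows). In both diets the read pairs per kb of *Slc2a4*, counted after the removal of duplicates, were therefore several times those of *Slc2a1*. *Txnip* to *Arrdc4* had log2 ratios of 3.53 ± 0.33 and 3.68 ± 0.19, a difference of 0.15 (permutation test, p = 0.226, adjusted p = 0.226). That ratio differed by 0.47 within the lower series (exact permutation test, p = 0.00253, the smallest the design allows) and by -0.26 within the higher series (exact permutation test, p = 0.0714), following *Arrdc4*.

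**Figure D4:**
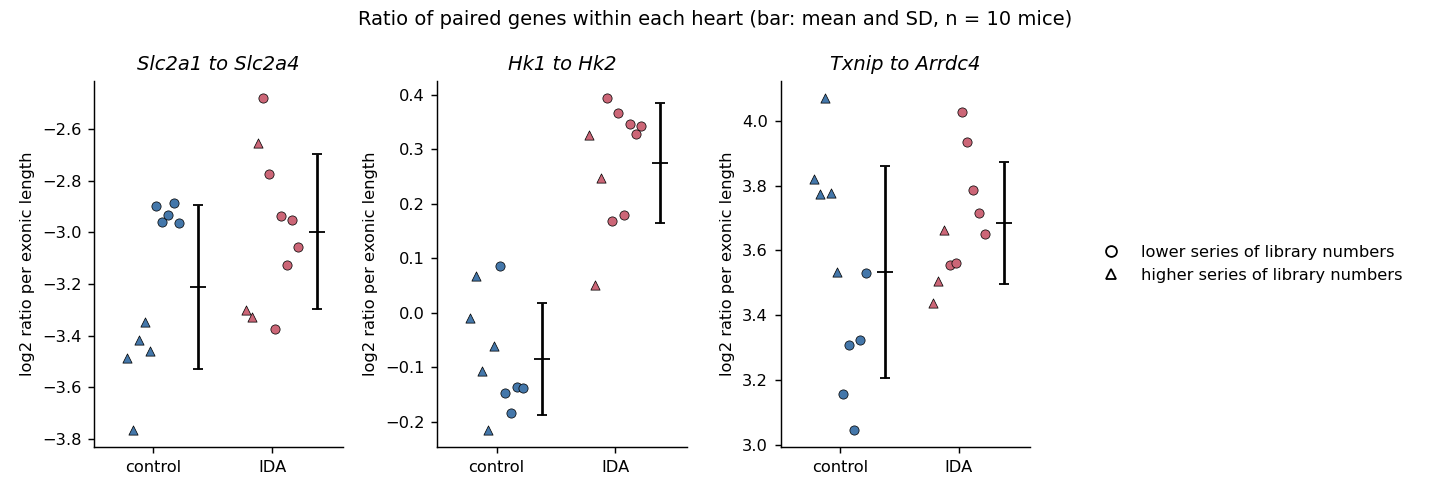
Log2 ratio of paired genes, per exonic length, in each control (blue) and IDA (red) heart, with circles for the lower and triangles for the higher series of library numbers, and bars for the mean and SD of 10 mice. The *Hk1* to *Hk2* ratio is -0.22 to 0.09 in control and 0.05 to 0.40 in IDA hearts, and the *Txnip* to *Arrdc4* ratio of control hearts divides by series.

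Levels of the 7 genes were set on one scale as CPM per exonic kb, after the removal of duplicates. Before scaling, control hearts had 1.06 read pairs per exonic base for *Slc2a4*, beside 0.117 for *Slc2a1* and 0.085 for *Arrdc4*. How far the removal of duplicates held down the denser genes on this scale was not tested. The order in control hearts was *Slc2a4* (138 ± 8.11), *Txnip* (124 ± 10.4), *Gpi1* (100.4 ± 8.45), *Hk2*, *Hk1*, *Slc2a1* (15.03 ± 2.75) and *Arrdc4* (10.9 ± 2.49; SD, n = 10 each). The ranges of neighbours overlapped except those of *Hk1* and *Slc2a1*. In IDA hearts the order was *Slc2a4* (149 ± 10.4), *Txnip* (140 ± 10.98), *Gpi1* (116 ± 6.39), *Hk1*, *Hk2*, *Slc2a1* (18.7 ± 2.85) and *Arrdc4* (10.9 ± 1.30; SD, n = 10 each). There the ranges of *Slc2a4* and *Txnip* and of *Txnip* and *Gpi1* overlapped, and those of the other neighbours did not.

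Across mice, with diet means removed, 3 of 21 pairs of genes had an adjusted p below 0.05 for Pearson's r (permutation within diet, n = 20). *Slc2a4* and *Gpi1* varied together at r = 0.877 and rho = 0.938 (adjusted p = 0.00021 for each, permutation, from the smallest p that the resamples can give), at 0.932 without the 2 farthest mice, and at 0.867 within the series of library numbers (adjusted p = 0.00189, permutation). With log2 total count also removed, r was 0.255. *Hk1* and *Gpi1* had r = 0.621 and rho = 0.558 (adjusted p = 0.0419 and 0.0831, permutation), 0.433 without the 2 farthest mice, and 0.555 within the series (adjusted p = 0.141, permutation). Because *Slc2a1* falls into separate levels by series, its relation to *Gpi1* is given within the series, where r was -0.478 (adjusted p = 0.252, permutation). The *Slc2a4* and *Gpi1* relation was thus the one that passed the test within the series, although its r was 0.255 with log2 total count also removed. With total count removed in the same way, r was 0.535 for *Hk1* and *Gpi1* and -0.451 for *Slc2a1* and *Gpi1*. The arrestins *Txnip* and *Arrdc4* had r = 0.275 within the series (adjusted p = 0.678, permutation).

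Genes whose log2 CPM varied most like each of the 7 over the 20 mice, after diet means were removed, are given as a description, and all points share library size and series. For *Slc2a4* they were *Pink1* (r = 0.977), *Sdhc* (0.972) and *Kif1c* (0.972), with log2 fold changes of 0.18, 0.14 and 0.11. For *Gpi1* they were *Rpl4* (0.985) and *Rpl8* (0.983), which encode ribosomal proteins, and the glycolytic enzyme gene *Tpi1* (0.979), with log2 fold changes of 0.18, 0.22 and 0.19. *Hk2* was followed by *Pptc7* (0.949), *Rap1gap2* (0.949) and *Trak2* (0.936), all lower in IDA hearts, with log2 fold changes of -0.45, -0.27 and -0.40. *Hk1* was nearest to *Atp6v0a1* (0.860), *Tmem5* (0.781) and *Tex261* (0.769), with log2 fold changes of 0.08, 0.16 and -0.02. *Slc2a1* was nearest to *Fbxo16* (0.837) and to *Mmrn2* (0.818) and *Flt4* (0.818), which endothelial cells express. Their log2 fold changes were 0.70, -0.05 and -0.34, so *Flt4* (adjusted p = 3.79e-05, edgeR) was lower in IDA hearts while *Slc2a1* was higher. *Txnip* was nearest to *Dhx40* (0.780), *Cdkn1b* (0.756) and *Tcp11l2* (0.751), whose log2 fold changes of -0.11, -0.11 and -0.07 were opposite in sign to that of *Txnip* and not called. *Arrdc4* was nearest to *Plau* (0.825), *2610035D17Rik* (0.817) and *Sybu* (0.807), with log2 fold changes of -0.32, 0.42 and -0.07.

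Around these steps, 67 further genes in 8 groups were listed, of which 58 were tested, 16 were higher, 24 were lower and 18 were not called (69.0% called, beside 67.5% of all tested genes). Among 12 other glucose transporters 8 were tested, 2 were higher and 2 lower, with a median log2 fold change of 0.09. *Slc2a3* (GLUT3, a high-affinity transporter of neurons, platelets and leukocytes) had 7.28 ± 1.73 CPM in control and 11.7 ± 4.84 CPM in IDA hearts (SD, n = 10 each; log2 fold change 0.68, standard error 0.20, adjusted p = 0.00494, edgeR). The platelet markers rose in the same hearts, and their part in this was not tested. *Slc2a8* (GLUT8) rose from 52.1 to 67.9 CPM (log2 fold change 0.38, adjusted p = 5.53e-05). *Slc2a12* (GLUT12) fell from 34.8 to 24.9 CPM (log2 fold change -0.49, adjusted p = 0.000438), and the sodium-glucose transporter gene *Slc5a1* from 2.30 to 1.57 CPM (log2 fold change -0.57, adjusted p = 0.029, edgeR). *Slc5a1* was not called with the length trend removed (-0.39, adjusted p = 0.141).

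Of 8 other genes of glucose phosphorylation and its reversal, 4 were tested and 1 was called. It was *G6pc3*, a widely expressed glucose 6-phosphatase, at 94.7 ± 6.52 CPM in control and 117 ± 8.003 CPM in IDA hearts (SD, n = 10 each; log2 fold change 0.31, adjusted p = 3.93e-06, edgeR), and 0.11 with the length trend removed (adjusted p = 0.00842). All 8 genes of the branches from glucose 6-phosphate were tested, 2 were higher and 3 lower (median log2 fold change -0.09). The largest difference was in *Gfpt1*, the first enzyme of the hexosamine branch, with 77.0 ± 12.8 CPM in control and 37.6 ± 6.14 CPM in IDA hearts (SD, n = 10 each; log2 fold change -1.03, standard error 0.10, adjusted p = 1.65e-07, edgeR), and -0.63 with the length trend removed (adjusted p = 4.01e-07). *G6pdx*, the first enzyme of the pentose phosphate branch, was higher by 0.21 (adjusted p = 0.0331), and *Pgm2*, a phosphoglucomutase, by 0.14 (adjusted p = 0.00514, edgeR), although *Pgm2* was not called with the length trend removed (0.08, adjusted p = 0.113). *H6pd*, the counterpart of *G6pdx* in the endoplasmic reticulum, had a log2 fold change of -0.20 (adjusted p = 0.0363, edgeR), and of 0.07 with the length trend removed (adjusted p = 0.498).

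Of 4 other alpha-arrestins 3 were tested, with *Arrdc3* lower (log2 fold change -0.37, adjusted p = 0.00209) and *Arrdc1* higher (0.30, adjusted p = 0.0153, edgeR), and neither was called with the length trend removed (adjusted p = 0.098 and 0.222). The thioredoxin genes *Txn1* and *Txn2* were higher by 0.24 and 0.21 (adjusted p = 5.61e-05 and 0.000339, edgeR), and stood at -0.04 and -0.03 with the length trend removed (adjusted p = 0.336 and 0.544). Of the 3 genes of the glucose-sensing factors *Mlxip*, *Mlxipl* and *Mlx*, only *Mlxip* (MondoA) was called, with 179 ± 16.3 CPM in control and 136 ± 15.4 CPM in IDA hearts (SD, n = 10 each; log2 fold change -0.39, adjusted p = 1.05e-05, edgeR). With the length trend removed *Mlxip* stood at 0.10 (adjusted p = 0.0431), so its direction turned.

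All 22 genes of GLUT4 trafficking and its control by insulin or AMP-activated kinase were tested, 8 were higher and 13 lower. Of all tested genes, 67.5% were called, 35.0% higher and 32.5% lower. The median log2 fold change of the list was -0.28, beside 0.02 over all genes. With the length trend removed the counts were 7 higher and 8 lower, beside 31.5% and 23.5% of all tested genes. *Lnpep* (IRAP, which travels in GLUT4 vesicles) had 146 ± 38.8 CPM in control and 62.3 ± 15.9 CPM in IDA hearts (SD, n = 10 each; log2 fold change -1.24, adjusted p = 8.01e-07, edgeR), and *Pdpk1*, the kinase that activates Akt, was lower (log2 fold change -0.95, adjusted p = 3.76e-07), and stood at -0.49 with the length trend removed (adjusted p = 4.46e-06). *Rab13*, a small GTPase of vesicle traffic, and *Aspscr1* (TUG, which tethers GLUT4 vesicles) were higher by 0.53 and 0.50 (adjusted p = 0.000552 and 1.33e-06, edgeR). Of these 4 genes, *Rab13* was not called with the length trend removed (0.25, adjusted p = 0.0509).

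Of 8 transcription factors known to act on *Slc2a4*, all tested, 0 were higher and 4 were lower, with a median log2 fold change of -0.21. Among all tested genes the shares were 35.0% higher and 32.5% lower. With the length trend removed 2 were higher and 3 lower, beside 31.5% and 23.5% of all tested genes. *Mef2a* had 162 ± 33.8 CPM in control and 57.3 ± 23.1 CPM in IDA hearts (SD, n = 10 each; log2 fold change -1.5, standard error 0.19, adjusted p = 6.9e-07, edgeR), and -1.47 with the length trend removed (adjusted p = 1.46e-06). *Mef2c* was lower (log2 fold change -0.55, adjusted p = 6.66e-07), and stood at -0.13 with the length trend removed (adjusted p = 0.0515, edgeR). *Slc2a4* itself, as given above, stood 0.11 higher in the same hearts, and at -0.0015 with log2 library size as a covariate (adjusted p = 0.967, edgeR).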

How the data were processed

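Hearts of 10 control and 10 IDA mice were grouped by their labels. Paired reads were aligned by the authors with STAR to mm10, PCR duplicates were discarded, and read pairs were counted over exons by gene, without strand. The authors deposited these raw counts (featureCounts 1.4.5-p1, per the file header). The study excluded a mouse of each diet for sample contamination without naming it, so all 20 were kept, the excluded mice among them. Counts were normalized by TMM and tested with edgeR 4.0.16 (quasi-likelihood, diet as the factor) in R 4.3.3, in genes reaching 1 CPM in 10 mice or more (13590 tested, 9830 excluded), with Benjamini-Hochberg adjustment over all of them. Standard errors are the log2 fold change divided by the square root of F. Ratios used a prior count of 2, and permutation tests, two-sided, 100000 resamples, or all arrangements where a group had fewer than 10 mice (scipy 1.17.1). To remove the length trend, each mouse's deviations were fitted on log2 exonic length by loess (span 0.5) and the curve was entered as offsets, and a GC correction used transcripts of 94% of tested genes. DESeq2 1.42.0 was an alternative. Steps were tested on simulated data. Counts of mice of a diet differed beyond sampling noise in all 90 pairs (chi-square per degree of freedom at least 1.50). The labels name separate mice.

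The 7 genes, the lists and the tests were chosen with earlier results of these data known. Named were the 7 genes, in each list up to 2 called genes with the largest and 2 with the smallest log2 fold change, the 3 genes nearest to each of the 7, and the highest gene of marker lists. Comparisons by series of library numbers, the relation to total counts, and fits without IDA mice 3, 4 and 5 were added after seeing the data.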

Additional observations from a re-analysis of the deposited data

Results flagged for a closer look

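The diet difference in *Arrdc4* was unlike in the series of library numbers. Its log2 fold change in the higher series exceeded that in the lower series by 0.76 (edgeR interaction test, adjusted p = 0.0233 over 13590 genes), with -0.32 in 12 mice of the lower and 0.43 in 8 mice of the higher series. The series was defined from the column names after the data were examined, and what it stands for was not tested. No heart lay far from the rest of its diet in the 14 sets of values of the 7 genes, by Dixon's test.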

How the results depend on the processing

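With DESeq2, other normalizations, no filter on low counts or the series as a factor, 5 genes were higher and 1 lower, as reported. *Hk2* turned to 0.17 with the length trend removed, 0.11 with length and GC, and 0.18 with length and series, and the count of lower genes was then 0. *Slc2a4* was -0.0002 with length and GC and -0.0015 with library size, which moved *Slc2a1* up to 0.50, still called, and *Arrdc4* to 0.22, still not called. Calls were lost for *Slc2a1* with length and GC (0.18), for *Slc2a1* (0.29), *Slc2a4* (0.12) and *Txnip* (0.19) with the erythroid mean (2 genes higher), for *Txnip* with library size (0.13, 3 genes higher), for *Slc2a4* with p below 0.01 in both packages (0.11), and for *Slc2a1* without IDA mice 3, 4 and 5 (0.19). Within the lower series *Slc2a1* was 0.15 and *Arrdc4* -0.32 (2 genes lower). Within the higher series *Slc2a4* was 0.027, *Hk1* 0.085, *Gpi1* 0.10, *Txnip* 0.17 and *Arrdc4* 0.43 (2 genes higher), the *Hk1* to *Hk2* ratio 0.27 and the *Slc2a1* to *Slc2a4* ratio 0.40, and in the lower series the *Txnip* to *Arrdc4* ratio was 0.47. Calls over all 13590 tested genes changed as well, from 9177 without a covariate or correction. They numbered 6443 with length and GC, 7920 with library size, 7267 with the erythroid mean, 8008 in the lower and 5906 in the higher series. Correlated pairs numbered 10 with the length trend removed and 1 within series, against 3. The causes were not tested.

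Without 1 mouse in turn, *Slc2a4* ranged from 0.08 to 0.13 and lost its call without control mouse 7, 8 or 9 or IDA mouse 6 or 10, which left 4 to 5 genes higher. Over 100 fits without a mouse of each diet, *Slc2a4* ranged from 0.072 to 0.15 and was called in 52, the other 5 called genes in 100 and *Arrdc4* in 0 (-0.09 to 0.07). Replicate numbers did not pair the mice (correlations of same-numbered mice -0.278 to 0.264). With the replicate number as a block *Slc2a4* lost its call (0.11, adjusted p = 0.0551, edgeR). Of the 7 genes, 4 were then higher and 1 lower, and 8912 of 13590 tested genes were called. *Slc2a1* and *Arrdc4* rested on the fewest read pairs, from 185 and 196 per mouse, and varied most between control mice (coefficients of variation 18.3% and 23.0%), whose values did not overlap between the series.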
